A study of Homo sapiens with 30 samples.

Results

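THBD (thrombomodulin), CD200 and CLEC14A are 3 genes for proteins of the cell surface that were read in prostate cancer cells. They were chosen by symbol, from 23710 genes, on the measured fall of their reads and FPKM to near 0 when MR49F cells in charcoal-stripped serum were given the BET bromodomain inhibitor JQ-1 without an added ligand. All 3 had a row in each of the 30 samples. That contrast chose the genes, so its values are given here as a description with no test.

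The 30 samples were poly(A) RNA-seq libraries of 2 established human lines derived from LNCaP prostate cancer cells, in 10 groups of 3 samples. V16D is a castration-resistant line, and MR49F was grown out in castrated mice under chronic enzalutamide and carries a point mutation on 1 allele of the androgen receptor gene. By the paper's account this mutation can turn enzalutamide into an agonist. In medium with 10% full serum, both lines received vehicle (0.1% DMSO) or 10 μM enzalutamide, developed as an androgen receptor antagonist, for 24 h. In medium with 10% charcoal-stripped serum, which is depleted of steroids, MR49F cells were held for 72 h and then given for 24 h vehicle (0.1% DMSO and 0.1% ethanol), 10 μM enzalutamide, 1 nM of the androgen DHT, 500 nM JQ-1, DHT with JQ-1, or enzalutamide with JQ-1. All groups had been without enzalutamide for 96 h before treatment. The study's methods call the samples of a group biological replicates, each with RNA from pooled wells, and do not say whether they were cultured on separate days. The p-values measure the spread between these samples.

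THBD binds thrombin at the surface of endothelium and directs it from clotting towards the activation of the anticoagulant protein C. CD200 is an immunoglobulin superfamily glycoprotein that restrains myeloid cells through its receptor CD200R1, and CLEC14A is a C-type lectin-like transmembrane protein of endothelium that binds the matrix protein MMRN2. THBD and CLEC14A belong to the same small family, the group XIV C-type lectins. JQ-1 displaces BET bromodomain proteins from acetylated chromatin.

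On GRCh37, THBD is a single-exon gene of 4040 bases on the minus strand of chromosome 20 (23026270 to 23030309). CD200 lies on the plus strand of chromosome 3 (112051194 to 112081659), with 8 annotated transcripts of 2 to 7 exons. CLEC14A is a single-exon gene of 2094 bases on the minus strand of chromosome 14 (38723205 to 38725298), and an lncRNA gene on the opposite strand begins 109 bases away. The 3 genes thus lie on 3 chromosomes. The bases before the start sites of CD200 and CLEC14A are shown, from RefSeq on GRCh38.p14, 250 bases each. They are read 5′ to 3′ on the strand of the gene (chr3:112332906-112333155 and chr14:38256094-38256343). The RefSeq promoters used held no entry for THBD. The genes were chosen for a common fall with JQ-1, so that nothing is read from a shared motif. Capitals mark a match to a motif searched, on either strand.
CD200: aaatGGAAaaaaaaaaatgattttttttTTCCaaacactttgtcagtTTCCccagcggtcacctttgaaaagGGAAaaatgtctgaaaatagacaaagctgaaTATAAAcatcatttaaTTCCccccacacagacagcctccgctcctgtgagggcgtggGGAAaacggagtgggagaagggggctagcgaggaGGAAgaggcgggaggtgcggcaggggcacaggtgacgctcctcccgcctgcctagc
CLEC14A: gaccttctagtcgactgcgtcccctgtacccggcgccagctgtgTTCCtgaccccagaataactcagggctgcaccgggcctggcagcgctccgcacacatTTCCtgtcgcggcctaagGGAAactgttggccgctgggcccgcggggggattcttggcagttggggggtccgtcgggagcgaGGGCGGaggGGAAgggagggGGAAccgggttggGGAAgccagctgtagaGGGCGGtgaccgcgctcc
The search covered 300 bases, which include 50 after the start site. The ETS core GGAA matched 7 times for CD200 and 6 times for CLEC14A, and 95.4% of 34943 promoters of the same length hold it. TATAAA matched once for CD200, at -147 from the start site, as in 11.6% of promoters. GGGCGG, the GC box, matched at -67 and -18 for CLEC14A, as in 44.9% of promoters. Neither window matched the E-box CACGTG, held by 7.23% of promoters, the KLF core CACCC, held by 59.8%, or the CCAAT box, held by 34.6%. Neither matched the AP-1 site TGACTCA, held by 4.96%, or the androgen response half-site AGAACA, held by 14.8%. GC content was 53.7% for CD200 and 66.7% for CLEC14A, against a median of 58.7% over promoters. The pair thus shared no motif of those searched other than GGAA.

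Levels are given as FPKM, the authors' reads scaled to transcript length and library size, which can be compared between genes, and as reads counted per gene. Reads on genes ranged from 13170504 to 21154962 per sample in full serum (73.0% to 77.8% of reads on 1 gene, on several or on none) but only from 982130 to 1813262 in stripped serum (5.13% to 7.66%). Counts per FPKM in stripped serum were 8.09% of those in full serum for the median of 13640 genes. For 272 genes whose exons overlap a gene on the other strand with at least 10 times the reads, the stripped-serum share of reads was a median of 47.8% of that in full serum, against 7.08% for 9572 genes with no gene opposite. Whether counting used the strand is not given in the sources used here. Counts per FPKM in stripped serum were 5.7% of those in full serum for THBD, 34.7% for CD200 and 96.2% for CLEC14A, beside the median of 8.09% over genes, so that the strand of the reads counted for CD200 and CLEC14A in stripped serum cannot be told apart. The 2 sera are therefore set side by side and were not tested against each other. Every value on reads in stripped serum given below carries this limit of strand, for these 2 genes and for all others. The shares of genes called on reads in stripped serum carry it as well.

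The known responses to the agents were present. HEXIM1, which rises on BET inhibition, had 13.5 FPKM with vehicle and 86.9 with JQ-1, and MYC had 66.5 and 36.4. KLK3 and TMPRSS2, induced by androgen receptor, had 283 and 23.3 FPKM with vehicle in stripped serum. They had 1258 and 170.1 with DHT and 161 and 47.4 with DHT and JQ-1. With enzalutamide they had 800 and 91.5, and with enzalutamide and JQ-1 45.9 and 32.0. In stripped serum enzalutamide thus went with higher, not lower, levels of both genes. Although THBD and CLEC14A are typical of endothelium, the cells were not. Of 25 endothelial markers, EGFL7 alone reached a mean of 1 FPKM in stripped vehicle, and 9, among them PECAM1 and CDH5, were at 0 in all 3 vehicle samples. The other 24 markers were below 1 FPKM in every stripped-serum sample and summed to 2.51 to 3.04 FPKM per sample with vehicle and 1.66 to 2.16 with JQ-1. The sum over all 25 was 50.6 to 52.2 FPKM with vehicle and 59.5 to 61.4 with JQ-1. Of 4 endothelial markers tested on reads for JQ-1 added to enzalutamide, EGFL7 was called higher and ENG lower (median log2 fold change -0.54), where 22.0% of 10863 genes were called higher and 23.2% lower. None of 9 leukocyte markers reached 1 FPKM in stripped vehicle or could be tested, and all 8 prostate epithelial markers did, with 1 called higher and 4 lower (median -0.29).

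**Figure D1:**
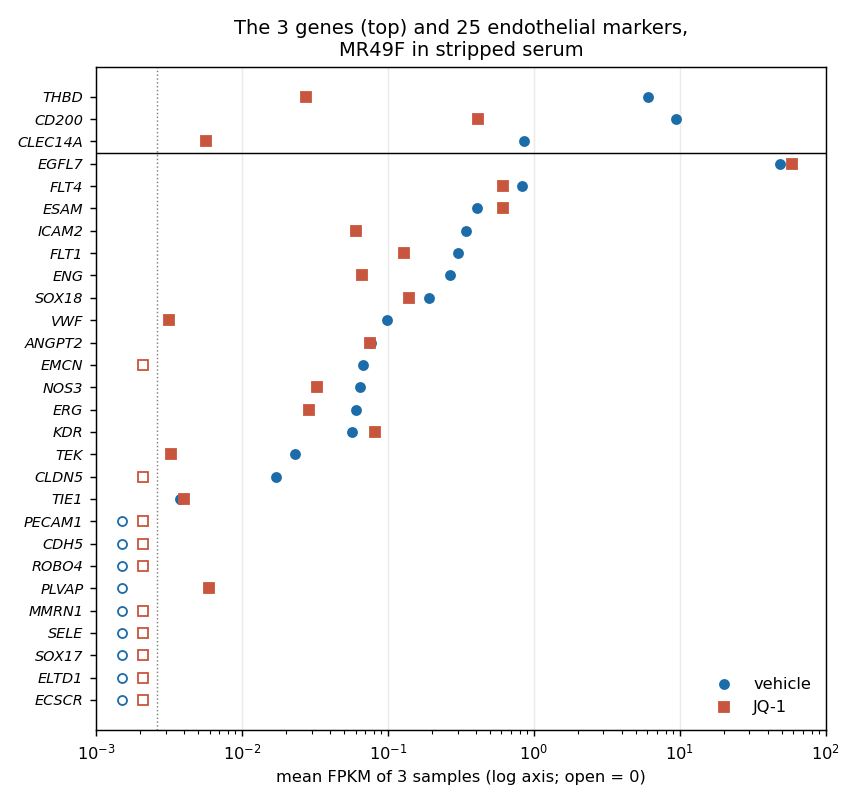
Mean FPKM (log axis, 3 samples each) of the 3 genes, at the top, and of 25 endothelial markers in MR49F cells in stripped serum with vehicle (circles) and JQ-1 (squares), open symbols standing for 0. THBD at 6.04 and CD200 at 9.46 FPKM with vehicle exceed every endothelial marker except EGFL7.

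THBD was near 6 FPKM in untreated MR49F cells in stripped serum and close to 0 with JQ-1. Its 3 vehicle samples had 5.83, 6.28 and 6.01 FPKM (39, 33 and 25 reads), and its 3 JQ-1 samples had 0.0483, 0.0232 and 0.0113 FPKM (0 reads in each). The FPKM means were 6.04 ± 0.225 and 0.0276 ± 0.0189 (SD, n = 3), and the reads, at a floor of 3 counts over the group, put JQ-1 at least 36.7-fold lower. CD200 had 9.34, 9.73 and 9.31 FPKM with vehicle (223, 189 and 183 reads) and 0.461, 0.443 and 0.346 with JQ-1 (0, 3 and 1 reads). Its mean of 0.417 ± 0.0619 FPKM was 4.41% of the vehicle mean, and all 3 JQ-1 samples were above 0 FPKM. By reads the gap was wider, with vehicle 169-fold higher (95% exact counting interval 65.6 to 622). CLEC14A had 0.886, 0.725 and 0.968 FPKM with vehicle (46, 40 and 51 reads) and 0.0171, 0 and 0 with JQ-1 (1, 0 and 0 reads). In all 3 genes every JQ-1 sample lay below every vehicle sample. Of 11332 genes tested in this contrast, 23.9% were called lower by edgeR, and THBD, CD200 and CLEC14A had 0, 1 and 4 genes with a lower log2 fold change, which is how they came to be chosen. In bulk RNA, fewer cells that express a gene and less RNA per cell cannot be told apart.

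**Figure D2:**
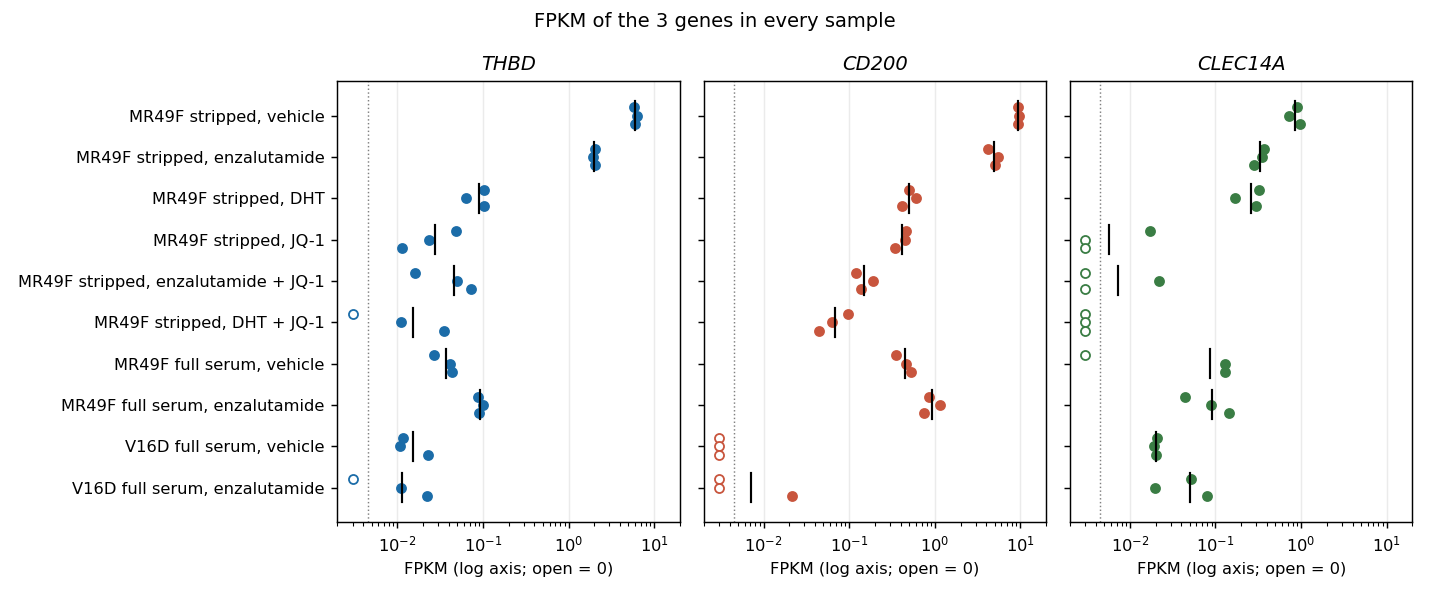
FPKM (log axis) of THBD, CD200 and CLEC14A in each of the 30 samples, with 1 point per sample, open points for 0 and a bar at the mean of 3. Each gene is highest with vehicle in stripped serum and lower in each of the other 9 groups.

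JQ-1 added to enzalutamide was measured in samples outside the contrast that chose the genes, and the 3 genes were again far lower. The genes were chosen with earlier results of these data known, so that these tests are no independent support. CD200 had 4.15, 5.53 and 5.05 FPKM with enzalutamide and 0.121, 0.190 and 0.139 with enzalutamide and JQ-1. By reads it went from 57, 72 and 61 to 0, 2 and 0, a ratio of 78.7 (95% exact counting interval 21.5 to 655). The log2 fold change was -6.08 (SE 0.493, adjusted p = 1.45e-10, edgeR quasi-likelihood test) on reads. On log2(FPKM + 1), a scale that understates changes of low genes, it was -2.35 (SE 0.0899, adjusted p = 7.04e-08, limma).

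THBD had 2.06, 1.93 and 2.02 FPKM with enzalutamide and 0.0159, 0.0498 and 0.0728 when JQ-1 was added. All 3 samples with JQ-1 were thus below 0.1 FPKM. The log2 fold change on FPKM + 1 was -1.52 (SE 0.0638, adjusted p = 1.03e-07, limma). The filter on low counts left THBD out of the read test, and without it 16, 8 and 8 reads against 0, 0 and 1 gave -4.32 (SE 0.836, adjusted p = 2.74e-06, edgeR). CLEC14A had 0.369, 0.352 and 0.280 FPKM with enzalutamide and 0, 0.0220 and 0 with both agents. Its 17, 19 and 16 reads, whose strand cannot be told apart, fell to 0, 1 and 0, with a log2 fold change of -5.01 (SE 0.680, adjusted p = 1.10e-06, edgeR). CLEC14A was too low for the FPKM test, and without that filter gave -0.40 (adjusted p = 6.86e-05, limma).

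**Figure D3:**
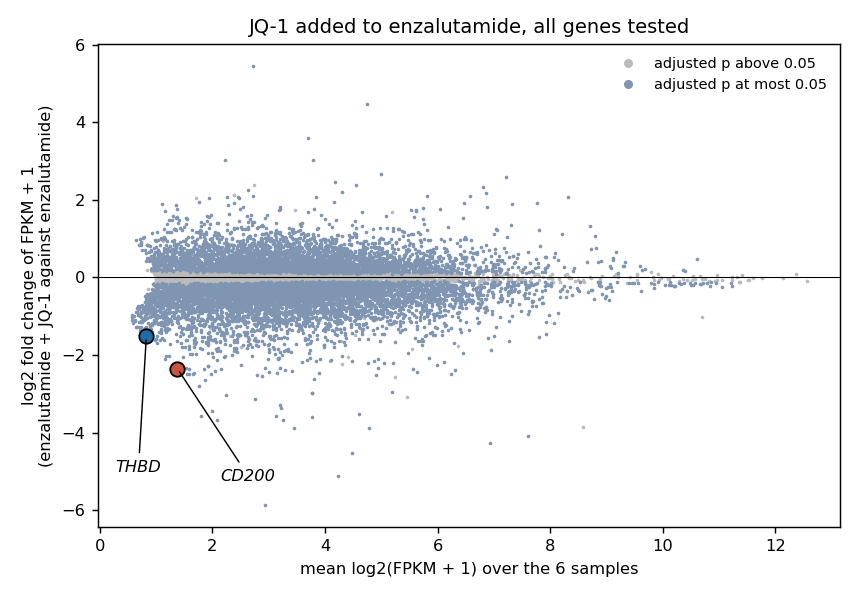
log2 fold change of FPKM + 1 for JQ-1 added to enzalutamide against the mean log2(FPKM + 1) of the 6 samples, 1 point per gene tested, with THBD (-1.52) and CD200 (-2.35) marked. Both lie at the lower left edge, and CLEC14A is not drawn because it did not reach 1 FPKM.

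Of the 3 genes, 2 passed the filter on low counts in this comparison (CD200 and CLEC14A) and both were called lower, where 23.2% of 10863 genes were. On FPKM, 2 passed (CD200 and THBD) and both were called lower, where 44.4% of 12148 genes were. Each passed through the enzalutamide samples alone, so that nothing is read from these counts. By size of change, no tested gene had a lower log2 fold change than CD200 on reads and 4 had a lower one than CLEC14A. On log2(FPKM + 1), 47 genes lay below CD200 and 241 below THBD. The genes were chosen for a large fall with JQ-1 and passed the filters through samples without it. Nothing is therefore read from these ranks either.

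THBD and CD200 were already low with DHT before JQ-1 was added, and CLEC14A was at 30.4% of its vehicle mean. CLEC14A had 0.321, 0.169 and 0.294 FPKM with DHT (18, 10 and 13 reads) and was listed at 0 FPKM, with 0 reads, in all 3 samples with DHT and JQ-1. It was at least 15.4-fold lower by reads, and the fitted log2 fold change of -6.89 (SE 0.882, adjusted p = 4.80e-08, edgeR) is no bound since 1 group is at 0. CLEC14A was the 1 gene of the 3 to pass the filter on low counts, where 28.0% of 10779 genes were called lower. It passed through the DHT samples alone, so that nothing is read from that count, and none of the 3 passed the filter on FPKM.

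CD200 had 0.497, 0.607 and 0.414 FPKM with DHT and 0.0976, 0.0635 and 0.0446 when JQ-1 was added, without overlap. Its 5, 8 and 3 reads went to 0, 1 and 0, a ratio with a 95% exact counting interval of 2.80 to 756. Without the filters, the log2 fold change of CD200 was -3.74 on reads (SE 1.01, adjusted p = 9.42e-04, edgeR) and -0.49 on FPKM + 1 (SE 0.0495, adjusted p = 2.32e-04, limma), where 43.3% of 11856 genes were called lower with the filter. THBD had 0.102, 0.0636 and 0.102 FPKM with DHT and 0, 0.0111 and 0.0351 with JQ-1 added. At 2 reads against 0 its difference was not detectable in the counts (adjusted p = 0.305, edgeR without the filter), and on FPKM + 1 it was -0.10 (SE 0.0217, adjusted p = 0.00743, limma without the filter).

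**Figure D4:**
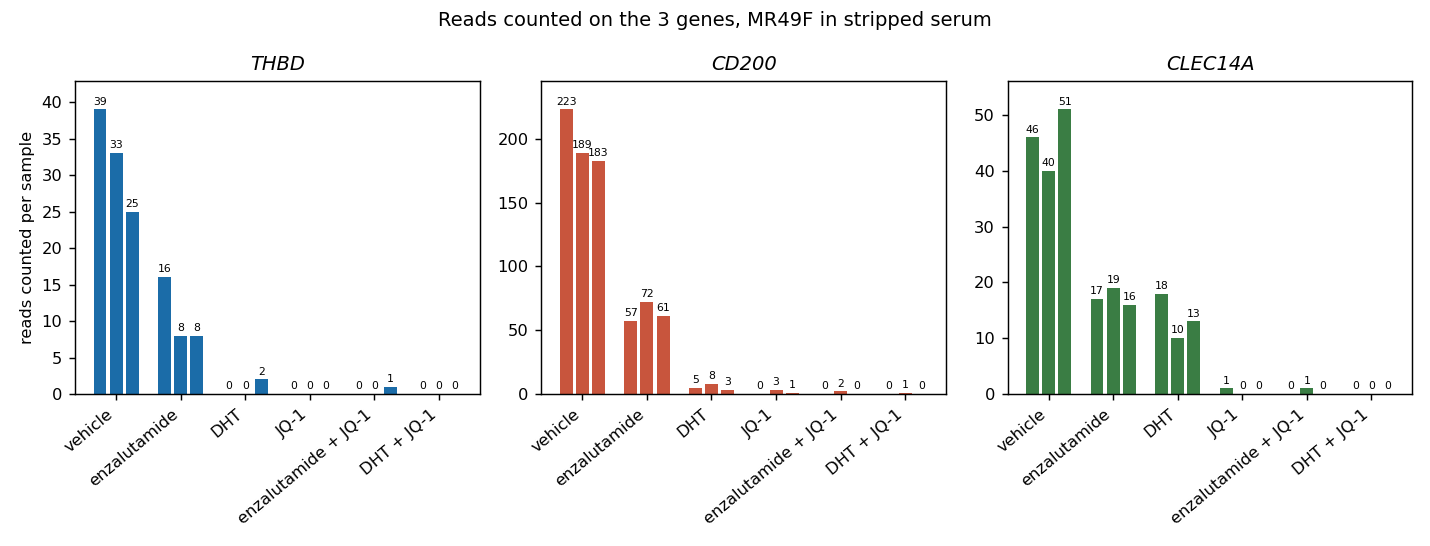
Reads counted on THBD, CD200 and CLEC14A in each of the 18 stripped-serum samples of MR49F cells, 1 bar per sample with its count. No sample with JQ-1 has more than 3 reads on any of the 3 genes.

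Taking both ligands at once, as the average of the 2 JQ-1 co-treatments against the average of the 2 ligands over 12 samples, CD200 had a log2 fold change of -4.90 (SE 0.575, adjusted p = 4.01e-09) and CLEC14A one of -5.92 (SE 0.565, adjusted p = 7.09e-11) on reads by edgeR, where 30.9% of 11494 genes were called lower. These genes again passed the filters through samples without JQ-1. THBD gave -3.51 (SE 1.16, adjusted p = 0.00722) without the filter. Without DHT replicate 3, which held the 2 reads of its group, the THBD value was -2.16 (adjusted p = 1.00, edgeR). Both groups with DHT then had 0 reads, so that the DHT part of the average could not be estimated. For JQ-1 added to enzalutamide, the THBD value without the filter was -4.32, as given above. On FPKM + 1, limma gave -1.42 for CD200 (SE 0.0580, adjusted p = 1.64e-10) and -0.81 for THBD (SE 0.0367, adjusted p = 4.32e-10), where 47.3% of 12357 genes were called lower.

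The effect of JQ-1 differed between the ligands on log2(FPKM + 1) for THBD and CD200. The log2 change with DHT minus that with enzalutamide was 1.42 for THBD (SE 0.0735, adjusted p = 1.10e-07) and 1.86 for CD200 (SE 0.116, adjusted p = 4.47e-07) by limma, where 13.6% of 12357 genes were called in that direction. The ratio of mean FPKM without and with JQ-1 was 43.5 under enzalutamide and 5.80 under DHT for THBD, and 32.7 and 7.38 for CD200. On this scale a gene cannot fall by more than its own level, and both genes were low with DHT, so that the smaller fall was fixed by their level. On reads the interaction was 2.37 for CD200 (SE 2.48, adjusted p = 0.749) and -1.80 for CLEC14A (SE 1.49, adjusted p = 0.666) by edgeR, neither past the threshold, where 2.45% of 11494 genes were called. Without enzalutamide and JQ-1 replicate 2, which held the 1 read of its group, the CLEC14A value turned to 0.24. THBD was left out of the read test by the filter.

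Between the ligands, THBD and CD200 were lower with DHT than with enzalutamide, and CLEC14A was not called. THBD had 2.01 ± 0.0663 FPKM with enzalutamide and 0.0893 ± 0.0222 with DHT, and CD200 had 4.91 ± 0.700 and 0.506 ± 0.0964 (SD, n = 3). The log2 fold change of DHT against enzalutamide was -3.45 for CD200 on reads (SE 0.327, adjusted p = 1.57e-07, edgeR), where 9.13% of 10916 genes were called lower. On FPKM + 1 it was -1.97 for CD200 (SE 0.0928, adjusted p = 3.26e-07) and -1.46 for THBD (SE 0.0613, adjusted p = 1.57e-07) by limma, where 36.5% of 12029 genes were called lower. CD200 on both scales and THBD on FPKM passed the filters through the enzalutamide samples alone. Nothing is therefore read from their calls beside these shares. CLEC14A had 0.334 ± 0.0470 FPKM with enzalutamide and 0.261 ± 0.0812 with DHT, and these samples overlapped. Its log2 fold change was -0.24 (SE 0.304, adjusted p = 0.632, edgeR), and by reads enzalutamide exceeded DHT 1.17-fold, with a 95% exact counting interval of 0.759 to 1.80.

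Against vehicle, whose samples also chose the genes, both ligands are described without a test. With enzalutamide the mean FPKM was 33.2% of vehicle for THBD, 51.9% for CD200 and 38.8% for CLEC14A. With DHT it was 1.48% for THBD, 5.35% for CD200 and 30.4% for CLEC14A. For CD200 the reads put the fall further, with vehicle 3.09-fold above enzalutamide (95% exact counting interval 2.62 to 3.66) and 33.7-fold above DHT (20.6 to 59.3), against 1.93 and 18.7 by mean FPKM. No ligand sample reached the lowest vehicle sample of its gene. CD200 had 0.506 FPKM with DHT and 0.417 with JQ-1, and the samples of the 2 groups overlapped on FPKM. By reads, with 16 in all against 4, the groups met at 3 reads, in DHT replicate 3 and JQ-1 replicate 2. On CPM that DHT sample, at 2.15, lay only slightly above that JQ-1 sample, and nothing is read from this gap.

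In full serum the 3 genes were low in both lines. CD200 had 0.355, 0.455 and 0.524 FPKM in MR49F cells with vehicle (14, 23 and 19 reads) and 0.855, 1.15 and 0.752 with enzalutamide (36, 62 and 46 reads), without overlap. The log2 fold change was 1.04 (SE 0.233, adjusted p = 0.0214, edgeR), where 3.86% of 13927 genes were called higher. The call was lost without enzalutamide replicate 1 (adjusted p = 0.0622), enzalutamide replicate 2 (0.0946) or vehicle replicate 2 (0.0817), while the difference stayed between 0.83 and 1.17. CD200 did not pass the FPKM filter here, and without it gave 0.41 on FPKM + 1 (SE 0.0893, adjusted p = 0.0957, limma).

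THBD had 0.0266, 0.0416 and 0.0434 FPKM in MR49F cells with vehicle and 0.0873, 0.0995 and 0.0898 with enzalutamide, on 9 and 27 reads in all. The groups did not overlap, and the log2 fold change of 1.23 on reads did not pass the test (SE 0.503, adjusted p = 0.157, edgeR without the filter). CLEC14A had 0.0855 ± 0.0740 and 0.0916 ± 0.0495 FPKM (SD, n = 3) on 13 and 16 reads, and its groups overlapped (-0.02, SE 0.663, adjusted p = 0.985, edgeR without the filter).

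V16D cells had almost no CD200. It was listed at 0 FPKM, with 0 reads, in all 3 vehicle samples and in enzalutamide replicates 1 and 2, and the third had 1 read. In MR49F cells with vehicle CD200 was at least 19.7-fold higher by reads (56 against 0). The fitted log2 fold change of 7.31 passed the test (SE 0.731, adjusted p = 1.35e-05, edgeR), where 31.9% of 14013 genes were called higher, but CD200 passed the filter through the MR49F samples alone. THBD had 4 and CLEC14A 3 reads over the V16D vehicle samples, against 9 and 13 in MR49F. Neither difference between the lines passed the test (THBD adjusted p = 0.235, CLEC14A adjusted p = 0.0660, edgeR without the filter). Enzalutamide in V16D cells left all 3 genes below the filters, and their adjusted p-values without it were 0.825 for THBD, 0.568 for CD200 and 0.459 for CLEC14A by edgeR. The enzalutamide effect on CD200 did not differ between the lines past the threshold (-0.79, SE 0.942, adjusted p = 0.707, edgeR), where 6.95% of 14471 genes were called, and without V16D enzalutamide replicate 3, which held the 1 read, the value turned to 1.03. On FPKM + 1 without the filter its sign was the opposite (0.40, SE 0.0950, adjusted p = 0.0519, limma). For THBD the difference did not pass on reads (1.71, SE 1.28, adjusted p = 0.585, edgeR without the filter) and was 0.08 on FPKM + 1 without the filter (SE 0.0160, adjusted p = 0.0221, limma), where 3.64% of 13011 genes were called higher with the filter.

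Set in order of mean FPKM over the 10 groups, all 3 genes were led by stripped vehicle and then stripped enzalutamide. For CD200 the next were MR49F full serum with enzalutamide (0.921 ± 0.209 FPKM), stripped DHT (0.506), MR49F full serum with vehicle (0.445), JQ-1 (0.417), enzalutamide with JQ-1 (0.150), DHT with JQ-1 (0.0686), V16D with enzalutamide (0.00712) and V16D with vehicle (0). Of these neighbours, the samples of stripped DHT, MR49F full-serum vehicle and JQ-1 overlapped in turn, as did those of the V16D groups. For THBD the third group, MR49F full serum with enzalutamide, had 0.0922 ± 0.00643 FPKM, and from there down each group overlapped the next. For CLEC14A stripped enzalutamide (0.334) and stripped DHT (0.261) overlapped, stripped DHT lay above all 3 samples of MR49F full serum with enzalutamide (0.0916), and from there down each group overlapped the next. CD200 alone was read from more than 1 transcript. NM_005944 carried nearly all of it, and NM_001004196 was near 0 except in stripped vehicle replicate 3, with 1.06 FPKM beside 8.25 for NM_005944.

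Other genes followed the same course over the 18 stripped-serum samples, which share 1 vehicle group and 1 cell line. By Pearson r of log2(FPKM + 1), given as a description, the genes most like THBD of 12594 ranked were AMIGO2 (0.994), DIO3 (0.988), CTNNA3 (0.986) and ZNF462 (0.984). Those most like CD200 were IL1RN (0.996), an antagonist of interleukin-1, LTN1 (0.995), DOCK10 (0.994) and ZNF462 (0.991). Those most like CLEC14A included GPER (0.981), TGM3 (0.973) and EFHC2 (0.972). THBD and CD200 had an r of 0.981 with each other, and CLEC14A had 0.923 with THBD and 0.905 with CD200. The genes differ in how far they fell. With JQ-1, IL1RN was at 3.72% and DOCK10 at 5.15% of the vehicle mean, near the 4.41% of CD200, while LTN1 was at 23.6% and ZNF462 at 32.9%. TGM3 was at 0.420% and EFHC2 at 0.858%, beside 0.663% for CLEC14A.

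**Figure D5:**
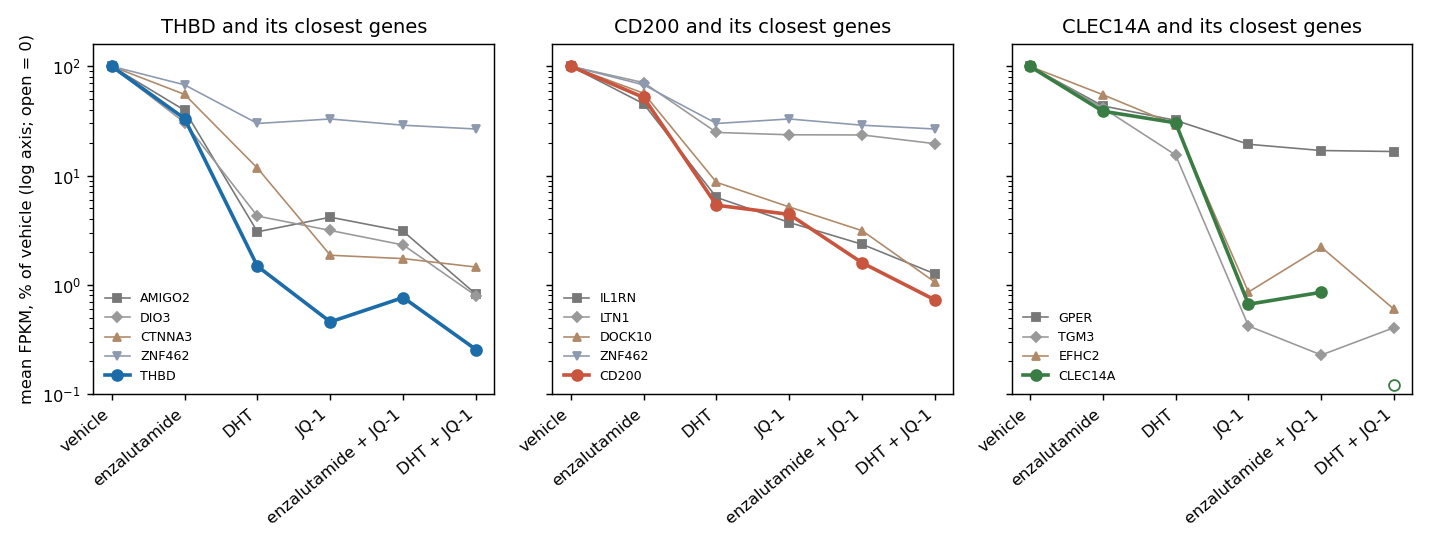
Mean FPKM of each of the 3 genes (thick line) and of genes with the most similar course (thin lines, 4 for THBD and CD200 and 3 for CLEC14A) in 6 stripped-serum groups of MR49F cells, as a percent of the vehicle mean on a log axis, with an open point for 0. CLEC14A is at 30.4% of vehicle with DHT, where THBD is at 1.48% and CD200 at 5.35%.

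The nearest genes on either side that had a row in the count table were below 0.21 FPKM in every sample. They are SSTR4 and CD93 beside THBD, SLC9C1 and BTLA beside CD200, and SSTR1 and LINC00639 beside CLEC14A. BTLA had 0.180 FPKM with vehicle and 0.0286 with JQ-1, SSTR1 0.145 and 0.00363, and LINC00639 0.150 and 0.00705. The lncRNA gene that begins 109 bases from CLEC14A was not analysed here. CD93, the family member next to THBD, was at 0 in each stripped-serum group.

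Most partners of THBD were too low to test. Of 18 other genes of thrombin and protein C, 4 were tested on reads for JQ-1 added to enzalutamide and 1 was called lower, beside 23.2% of all genes, with a median log2 fold change of 0.11 against -0.0036 over all genes. On FPKM + 1, 2 of 4 tested were called higher and 1 lower, beside 31.2% and 44.4% of all genes. The 1 was TFPI, the inhibitor of the tissue factor pathway, at 19.0 FPKM with enzalutamide and 1.29 with JQ-1 added (-4.37, SE 0.384, adjusted p = 6.27e-10, edgeR). The thrombin receptor F2R had 7.51 and 9.87 FPKM (0.45, SE 0.216, adjusted p = 0.0888, edgeR), was called higher on FPKM + 1 (0.35, adjusted p = 5.16e-04, limma), and was called higher on reads when JQ-1 was added to DHT (1.35, SE 0.238, adjusted p = 1.03e-05, edgeR). PROCR, the protein C receptor, was at 0.938 and 0.712 FPKM without and with JQ-1 and did not pass the filter.

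Of 9 factors known to act on THBD, 6 were tested and 1 was called lower on reads for JQ-1 added to enzalutamide, beside 23.2% of all genes, with a median of -0.12. On FPKM + 1, 1 of 6 was called higher (KLF6) and 4 lower (NR1H3, RARA, RARG and SP1), beside 31.2% and 44.4% of all genes, with a median of -0.29 against -0.0830 over all genes. The 1 called on reads was the retinoic acid receptor RARG, at 5.40 and 1.65 FPKM (-1.54, SE 0.329, adjusted p = 4.19e-04, edgeR). KLF2 and KLF4, which induce THBD in endothelium, were below 1 FPKM in each stripped-serum group. KLF6 was called higher when JQ-1 was added to DHT, at 3.51 and 8.84 FPKM (1.35, SE 0.228, adjusted p = 5.62e-06, edgeR). Of the other family members CD93 and CD248 neither could be tested. MMRN2, the ligand of CLEC14A, was not called for JQ-1 added to enzalutamide (-0.15, SE 0.323, adjusted p = 0.736) and was called lower for JQ-1 added to DHT (-1.21, SE 0.251, adjusted p = 1.10e-04, edgeR).

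Beside CD200, the surface regulators of immune cells moved in both directions. Of 12, 7 were tested on reads for JQ-1 added to enzalutamide, 2 were called higher and 3 lower, beside 22.0% and 23.2% of all genes, with a median of -0.29. PVR, an adhesion protein of the nectin family, went from 4.90 to 3.38 FPKM (-0.97, SE 0.231, adjusted p = 0.00119, edgeR). CD274, the ligand of an immune checkpoint receptor, was named after its value was seen and fell furthest of the list, from 5.81 to 0.336 FPKM (-4.04, SE 0.477, adjusted p = 1.18e-07, edgeR). CD276 went from 47.7 to 30.1 FPKM (-0.53, SE 0.121, adjusted p = 7.40e-04, edgeR). CD47, which signals against phagocytosis, rose from 8.60 to 11.5 FPKM (0.86, SE 0.188, adjusted p = 5.53e-04, edgeR), and CD59, which blocks complement, from 9.93 to 17.6 (0.71, SE 0.139, adjusted p = 1.52e-04, edgeR). CD200R1, the receptor of CD200, was at 0.110 FPKM or less in each group mean, and CD200R1L was at 0 in all but V16D with enzalutamide.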

How the data were processed

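Poly(A) RNA of 30 samples was made into stranded libraries (Agilent SureSelect) and read as single ends. Per the labels and the study's methods, the authors aligned reads to hg19 with TopHat2 2.0.9, deposited counts of reads per gene from HTSeq, and deposited FPKM that Cufflinks 2.1.1 gave for each RefSeq transcript. Here transcripts were summed to genes. The genes and lists were chosen with earlier results of these data known. Named genes are the 3 genes, 4 checks (KLK3, TMPRSS2, HEXIM1, MYC), up to 4 called genes of each list by mean FPKM, each gene's neighbours, and the 4 genes most like each, of which 1 is not reported here. Other list genes with values were named after these were seen.

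Counts were tested with edgeR 4.0.16 (quasi-likelihood, TMM, filterByExpr with a minimum count of 10) and log2(FPKM + 1) with limma 3.58.1 (trend, at least 1 FPKM in 3 samples), in R 4.3.3, within the groups compared, with Benjamini-Hochberg adjustment at 0.05. A gene left out by a filter is given from the fit without it. The SE given with edgeR was derived from its log2 fold change and F statistic, so that it is approximate where a group is near 0. DESeq2 1.42.0, other filters, a pseudocount of 0.1, a replicate block and leaving out each sample were alternatives. The fits were tested on simulated data. Ratios of reads and CPM were scaled to reads on genes times TMM factors over all 30 samples. The ratios have exact binomial intervals, which cover counting error only, and a group at 0 takes a floor of 3 counts.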

Additional observations from a re-analysis of the deposited data

Results flagged for a closer look

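The effect of JQ-1 differed between the 2 ligands on log2(FPKM + 1) for THBD (1.42, SE 0.0735) and CD200 (1.86, SE 0.116), tested as an interaction with limma over 12 samples. All 3 samples of each gene with enzalutamide lay above all 3 with DHT, and the decrease with JQ-1 was the smaller with DHT. With a pseudocount of 0.1 the values were 3.15 and 2.48. On either scale a gene cannot fall by more than its own level. With DHT THBD was at 0.0893 and CD200 at 0.506 FPKM, so that the smaller decrease was fixed by their level. Both genes passed the FPKM filter through the enzalutamide samples alone. Nothing is read from this difference about the ligands. On reads the CD200 interaction was 2.37 (SE 2.48, adjusted p = 0.749, edgeR).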

How the results depend on the processing

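Of 244 refits of the 54 values for the 3 genes outside the chosen contrast, 238 kept their direction and their side of the threshold, with DESeq2 size factors, DESeq2's Wald test, stricter or no filters, a pseudocount of 0.1 or a sample left out. The 6 others each left out 1 sample: over these refits THBD with JQ-1 added to a ligand ranged from -4.53 to -2.16, CLEC14A in the interaction from -2.32 to 0.24, CD200 with enzalutamide in MR49F full serum from 0.83 to 1.17, and the line difference for CD200 from -1.28 to 1.03. DESeq2 gave no adjusted p for CD200 in that full-serum comparison or for CD200 and CLEC14A in the ligand interaction. Without any 1 enzalutamide sample, THBD and CD200 could not always be fitted on FPKM because the filter needs 3 samples, and a gene below a filter has only the value without it.

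The count of called genes moved by over 1.5 times in a few comparisons, and the cause was not tested. With DESeq2's Wald test it was 1223 in place of 2122 for DHT against enzalutamide and 166 in place of 282 for the ligand interaction. Leaving out 1 sample, it ranged from 187 to 410 for that interaction (lowest without DHT and JQ-1 replicate 1), and from 742 to 1579 in place of 1006 for the line difference in the enzalutamide effect (1523 without MR49F vehicle replicate 1 and highest without replicate 3). For enzalutamide in MR49F full serum it ranged from 406 to 2533 in place of 1181 on reads, and from 88 to 1002 in place of 575 on FPKM, lowest without enzalutamide replicate 3 and highest without vehicle replicate 1. The replicate numbers are shared by groups, but same-numbered samples had a mean correlation of deviations of 0.0135 in stripped serum (-0.158 to 0.171 over 45 pairs), so that the numbers were not taken as pairs. A replicate block gave 100 in place of 575 genes for enzalutamide in MR49F full serum on FPKM and moved no other count by over 1.5 times. It changed no call of the 3 genes.

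Depth limits the low end: over the 3 samples of a group, each gene had 0 to 4 reads in the JQ-1 groups and 0 to 8 in the V16D groups. Differences among the JQ-1 groups were not tested.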
